A study of Mus musculus with 4 samples.

Results

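On an expression array, some probe sets (groups of short probes read as 1 value) match the transcripts of more than 1 gene. The probe sets described here are the 1810, of 41345 on the array, for which the platform annotation lists 2 or more gene symbols. Membership came from that annotation alone, with no use of the values of the sets, though earlier results of these data were known. Another 23525 sets list 1 symbol and 16010 list none. The number of symbols ran from 2 to 20: 1137 sets listed 2, 441 listed 3 to 5, and 232 listed 6 or more. The value of a shared set does not say which of its listed genes gave the signal, so each set is named here by its symbols, joined with a slash.

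Liver RNA of C57BL/6 mice, a common inbred strain, was measured on 4 arrays, 1 for each pool of mice. The first pool combined 7 wild-type (WT) mice on regular chow. A diet of 70% fructose, begun at an age above 2 months, was given to the other 3 pools: 7 WT mice for 3 weeks, 4 WT mice for 2 weeks and 6 Chrebp-null mice for 2 weeks. ChREBP, the product of Mlxipl, switches on genes for sugar handling and fat synthesis when sugar is plentiful. The labels give neither how the null allele was made nor in which cells it acts, and each pool held males and females in proportions not given. The series design names 2 comparisons, the 3-week fructose pool against the chow pool (the fructose comparison) and the Chrebp-null pool against the WT pool at 2 weeks (the Chrebp-null comparison), and these share no array. There were no replicates, so no test was run, no difference has a replicate check, and precision is limited by the count of arrays. In pooled tissue RNA, fewer cells of a type and less RNA per cell cannot be told apart.

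Genes that share probes fall into several kinds. Recent duplicates such as the alpha-class glutathione transferases, serum amyloid A, the major urinary proteins and the Ccl21 chemokines have nearly the same sequence. Parent genes and their processed pseudogenes share exons on different chromosomes. Neighbouring genes can overlap on the chromosome, and many small RNAs (microRNAs and the small nucleolar RNAs that guide the chemical modification of other RNAs) lie inside a host gene. In the liver, duplicated families carry much of the work of drug and steroid metabolism and of secretion into blood and urine.

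Promoter sequences of 3 pairs of genes listed by shared sets that differed between pools are printed first, to show how alike such duplicates are. Each holds 250 bases before and 50 after the gene's start, from RefSeq on GRCm38.p6, 5′ to 3′ on the gene's strand. Capitals mark the bases that differ within a pair when the 2 windows are aligned, including bases with no partner. The alpha-class glutathione transferase genes Gsta1 and Gsta2 were 79.3% identical over the window.
Gsta1 (chr9:78230419-78230718, plus strand): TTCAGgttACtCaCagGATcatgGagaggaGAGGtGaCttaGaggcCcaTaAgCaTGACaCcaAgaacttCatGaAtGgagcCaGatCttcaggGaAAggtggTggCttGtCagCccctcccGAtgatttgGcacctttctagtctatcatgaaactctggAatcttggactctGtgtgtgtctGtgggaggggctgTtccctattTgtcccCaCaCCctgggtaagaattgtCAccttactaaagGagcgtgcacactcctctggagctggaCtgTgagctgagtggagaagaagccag
Gsta2 (chr9:78347096-78347395, minus strand): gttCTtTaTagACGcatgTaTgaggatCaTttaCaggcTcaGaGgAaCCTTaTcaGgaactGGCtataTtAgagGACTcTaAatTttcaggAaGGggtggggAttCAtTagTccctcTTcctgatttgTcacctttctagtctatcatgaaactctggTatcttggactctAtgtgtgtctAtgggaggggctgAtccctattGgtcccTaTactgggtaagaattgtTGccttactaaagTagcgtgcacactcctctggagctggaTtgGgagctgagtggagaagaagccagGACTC
The serum amyloid A genes Saa1 and Saa2, which lie within 10 kb of each other, were 95.7% identical.
Saa1 (chr7:46742931-46743230, minus strand): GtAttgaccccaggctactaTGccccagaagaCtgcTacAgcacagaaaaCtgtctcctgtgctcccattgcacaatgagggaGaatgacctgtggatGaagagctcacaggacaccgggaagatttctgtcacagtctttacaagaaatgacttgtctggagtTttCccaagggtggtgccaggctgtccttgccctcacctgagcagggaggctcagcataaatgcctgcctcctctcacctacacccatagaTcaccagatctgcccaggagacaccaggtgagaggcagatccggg
Saa2 (chr7:46751583-46751882, plus strand): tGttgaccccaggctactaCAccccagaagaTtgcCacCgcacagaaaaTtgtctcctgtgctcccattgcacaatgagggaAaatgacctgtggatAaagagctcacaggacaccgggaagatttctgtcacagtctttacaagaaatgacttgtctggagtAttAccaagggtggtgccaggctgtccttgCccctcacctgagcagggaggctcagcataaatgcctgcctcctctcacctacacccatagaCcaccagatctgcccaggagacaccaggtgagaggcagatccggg
The major urinary protein genes Mup9 and Mup10, which the sets described below list separately, were 94.3% identical.
Mup9 (chr4:60421903-60422202, minus strand): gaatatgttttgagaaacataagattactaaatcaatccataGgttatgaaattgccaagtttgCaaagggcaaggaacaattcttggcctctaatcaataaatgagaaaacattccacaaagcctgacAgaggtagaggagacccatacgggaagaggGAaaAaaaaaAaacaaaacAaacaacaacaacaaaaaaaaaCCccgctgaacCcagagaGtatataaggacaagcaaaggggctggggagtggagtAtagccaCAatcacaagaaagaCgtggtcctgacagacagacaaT
Mup10 (chr4:60582106-60582405, minus strand): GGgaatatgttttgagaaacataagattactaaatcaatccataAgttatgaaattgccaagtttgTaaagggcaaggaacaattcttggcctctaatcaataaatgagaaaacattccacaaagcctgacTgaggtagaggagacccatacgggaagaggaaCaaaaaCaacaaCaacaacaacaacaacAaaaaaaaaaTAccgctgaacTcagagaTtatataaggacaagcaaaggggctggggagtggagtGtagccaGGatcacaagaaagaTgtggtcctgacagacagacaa
Under the same alignment Gsta1 and Saa1, genes of different families, were 61.7% identical. Ccl21a and Ccl21b were 57.0% identical over the same window, less than that pair, but do not stand for all the Ccl21 copies. Each shared set that lists Ccl21 genes had a pair of identical windows among its listed genes. A search of both strands for TTGCNNAA, a half-site pattern of C/EBP factors, found 1 match in Saa1 at 182 bases before the start, 1 in Saa2 at 183 and 1 in Ccl21a at 227. Of 32851 mouse promoter windows, 10.8% held it. TGACNNNGC, the core of the antioxidant response element, occurred in 12.4% of all windows and in neither Gsta1 nor Gsta2. A match is a description of the letters only.

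Mature microRNAs (at least 1 arm of each) of the genes listed by shared sets that differed at least 2-fold in either comparison are printed next, from RefSeq on GRCm38.p6, with the seed (bases 2 to 8, the part that pairs with targets) in capitals.
mmu-miR-5114 (chr19:44303171-44303192, plus strand): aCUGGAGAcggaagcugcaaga
mmu-miR-675-5p (chr7:142577112-142577133, minus strand): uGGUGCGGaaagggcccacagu
mmu-miR-675-3p (chr7:142577078-142577099, minus strand): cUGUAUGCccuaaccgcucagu
mmu-miR-1843a-5p (chr12:80391654-80391674, minus strand): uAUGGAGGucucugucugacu
mmu-miR-1843b-5p (chr1:159340362-159340382, plus strand): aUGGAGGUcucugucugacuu
mmu-miR-664-3p (chr1:185243012-185243033, plus strand): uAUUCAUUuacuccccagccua
mmu-miR-664-5p (chr1:185242975-185242995, plus strand): cUGGCUGGggaaaaugacugg
mmu-miR-5133 (chr9:62122565-62122585, minus strand): gCUGGAGCugcggcagcgcag
mmu-miR-134-5p (chr12:109734145-109734166, plus strand): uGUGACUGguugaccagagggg
mmu-miR-5136 (chr19:8888709-8888728, minus strand): aUAUGCGAgggaacuacugg
The array probes read the hairpin precursor or the host transcript, and no mature microRNA was measured. Among all members, 136 sets listed a microRNA gene and 65 of them reached the floor defined below. Of the 23 sets with 2 or more microRNA genes that have a sequence in the table, 7 listed genes with a mature sequence in common.

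Values are log2 signals, and a floor of 3.52 was set, the median level of genes with a set of their own. Array medians lay between 3.11 and 3.17. All 9 hepatocyte markers with a set of their own were above the floor in every pool, from albumin (Alb), between 12.60 and 12.72, to Ass1, with 4.39, 4.54, 5.86 and 5.78. The red cell markers Slc4a1 and Epb42 stayed below it. Mlxipl itself read 9.25, 9.64 and 9.83 in WT livers (chow, 3-week, 2-week) and 8.09 in the null. Of sex-linked genes, Xist read 8.84, 8.77, 8.56 and 7.04 in that order of pools, which is kept below, and the Y-linked Eif2s3y read 6.12, 6.00, 6.51 and 7.34. The median Chrebp-null difference was −1.57 over 12 assessed male-biased liver genes and −0.58 over 13 female-biased ones. For the 2-week over the chow pool it was −0.44 over 12 and −1.19 over 16.

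Of the 1810 shared sets, 882 reached the floor on at least 1 array and 716 on all 4, while 928 were below it everywhere. The share that reached the floor was 48.7%, against 53.9% of sets with 1 symbol. It depended on the kind of genes listed. Described genes of unlike names, mostly neighbours, gave 290 of 416 sets above the floor. A described gene listed with predicted genes only gave 255 of 519, and sets with predicted names alone gave 40 of 206. Families of sensory and reproductive genes (olfactory and pheromone receptors, keratins, placental and sperm genes) gave 12 of 139, and the highest mean level among them was 4.60. Ribosomal proteins gave 15 of 18, zinc finger genes 16 of 22, the Ccl chemokines 18 of 18, and histones 19 of 55.

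**Figure D1:**
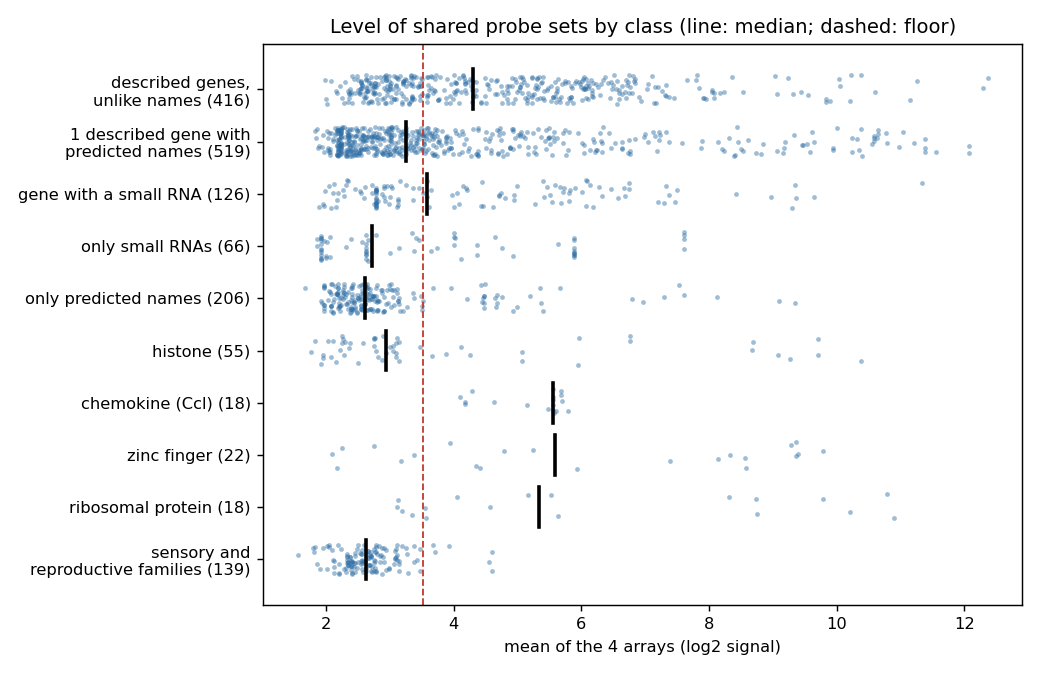
Mean log2 signal over the 4 arrays (horizontal axis) of each shared probe set, by class, with the number of sets in parentheses; the black line is the class median and the dashed line the floor of 3.52. Sets of only predicted names and of sensory and reproductive families lie mostly left of the floor, while zinc finger, chemokine and ribosomal protein sets lie mostly right of it.

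The share above the floor also varied with position in the genome. In 587 sets at least 2 listed genes overlap, and 342 of these reached the floor. In 285 sets the nearest pair lies within 10 kb, in 682 the listed genes are on 1 chromosome but further apart, and in 192 on several chromosomes. Of these last, 146 reached the floor, many of them a parent gene with its pseudogene, such as Rpl34/Rpl34-ps1 (10.76, 10.81, 10.82 and 10.78). Promoter likeness, taken from the most alike pair of windows in each set, also varied with position. This pair was at least 80% identical for 8.5% of 318 overlapping sets with promoters in the table. It was so for 47.9% of 194 sets within 10 kb, 76.6% of 457 further apart on 1 chromosome, and 28.8% of 52 on several chromosomes. Sets that list more genes offer more pairs, and this was not adjusted for.

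Some members carry the same measurement more than once. There were 1618 distinct value profiles among the 1810 sets, and 297 sets had 4 values identical to those of another shared set. The largest such groups were 16 sets of Gm26504/Snord116l1/Snord116l2, 12 of Mir669a-1/Mir669a-2/Mir669a-3 and 11 of Sly, a Y-linked testis gene, with predicted copies. All 3 groups had means below the floor. The largest above it was 9 sets of Rnu1b1/Rnu1b2/Rnu1b6, genes of U1 RNA, which takes part in splicing. Such sets are not independent, so counts below are also given by profile where that matters.

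In the fructose comparison 848 shared sets were assessed, that is, the higher of both arrays was at or above the floor. At least 2-fold higher were 7 of them, where 3.32% of all probe sets and 0.855% of sets with 1 symbol were. At least 2-fold lower were 10, where 2.00% of all sets and 1.13% of sets with 1 symbol were. Both counts are close to the background of 1-symbol sets. The median difference was 0.03, against −0.01 over all sets. In the 2-week fructose pool over the same chow array 4 sets were higher and 16 lower, and these shared 0 and 1 sets with the 3-week lists. Over all sets, 4.33% were higher and 2.98% lower in that pool.

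The largest fructose difference belonged to Preb/Abhd1. Preb encodes a regulator of vesicle exit from the endoplasmic reticulum, and Abhd1 is a hydrolase gene that overlaps it. The set read 4.13 on chow, 6.85 after 3 weeks of fructose, 4.14 after 2 weeks and 4.24 in the Chrebp-null pool. It was thus high on the 3-week array alone, by 2.72 over chow. The probe set of Preb alone read 7.70, 7.36, 7.98 and 8.24 and did not share this. Ferritin light chain, part of the iron store of cells, was listed by 6 sets. Ftl1/Ftl1-ps2 read 6.21, 7.54, 6.48 and 6.24, and the set Ftl1/Ftl2-ps/Ftl1-ps2 with values of 7.82, 9.06, 7.67 and 7.98 had the same shape. The other 4 sets of Ftl1 differed between chow and 3-week fructose by −0.08 to 0.51, and those of the same 3 symbols with values above 11 by −0.08 to 0.03. The other sets counted as higher were Rmi1/Hnrnpk (3.53, 4.72, 3.47 and 3.34), Cerkl/Itga4 (3.71, 4.87, 3.37 and 4.00), Zfp970/Zfp971 (6.81, 7.98, 7.48 and 7.30) and Scarna3b/Mir1843a (5.38, 6.42, 5.34 and 5.41). Except in Zfp970/Zfp971, only the 3-week array stood above the chow array by more than 0.30.

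Saa1/Saa2 was the lowest on fructose. Serum amyloid A is an acute-phase protein that the liver secretes on inflammatory signals, and the set read 7.93 on chow and 6.05 after 3 weeks, a difference of −1.88. Sets of neighbours and small RNAs followed: Snora36b/Mir664 (4.36 to 2.59), Plekhj1/Sf3a2 (6.25 to 4.76) and Mir5133/Glce (5.36 to 3.98). Snora36b/Mir664 ended below the floor, so its difference is less firm. The own set of Sf3a2, a splicing factor, read 7.01 in both pools, and that of Glce, an enzyme of heparan sulphate synthesis, 7.26 and 7.13. Mtf1/1110065P20Rik, with Mtf1 the metal-responsive factor, read 5.33 and 4.20, while the own set of Mtf1 read 6.66 and 7.29, a difference of the other sign. Tmem181a/Tmem181b-ps read 5.95 and 4.60, a difference of −1.35. Both 2-symbol sets of Gvin1, a very large interferon-inducible GTPase gene, with Gm4070 were lower, at 6.99 to 5.88 and 6.19 to 5.10. Idi1/Gm13502 completes the list with Gm3776/Gm10639/Gsta1/Gsta2, both taken up below.

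In the Chrebp-null comparison 828 shared sets were assessed. At least 2-fold higher were 27, in 23 profiles, where 3.77% of all sets and 2.07% of 1-symbol sets were. At least 2-fold lower were 21, in 13 profiles, where 3.81% of all sets and 1.45% of 1-symbol sets were. The median difference was 0.06, against 0.07 over all sets. Against the 3-week WT pool, which shares the null array, 23 sets were higher and 33 lower, and 12 and 16 of these were on the 2-week lists. Over all sets the shares were 4.30% and 3.66%.

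**Figure D2:**
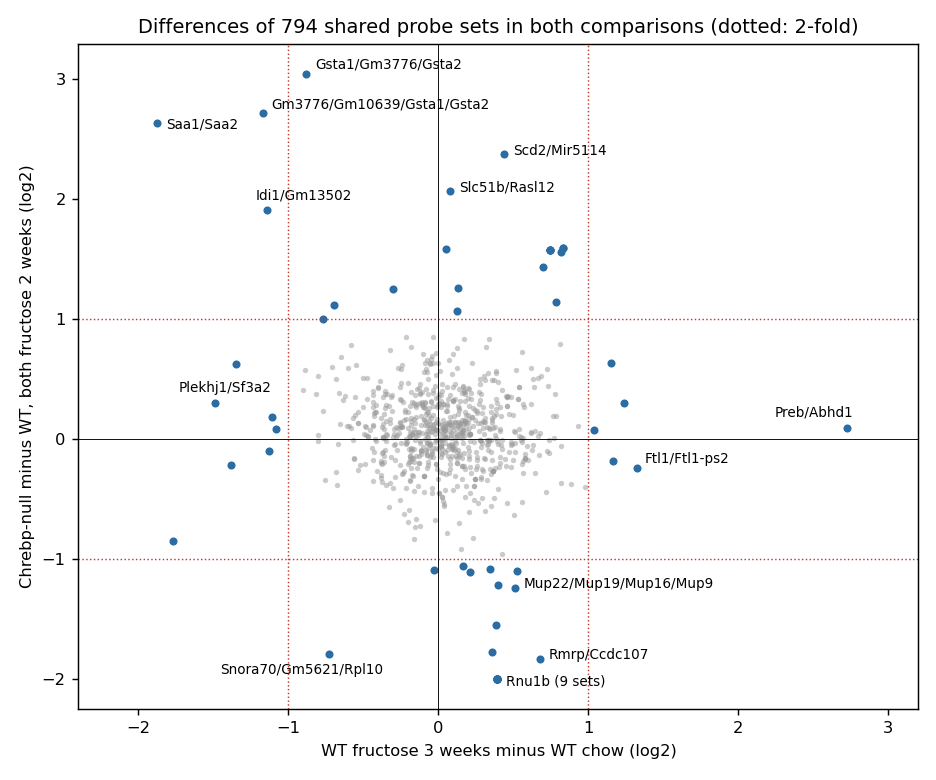
Log2 difference of each of 794 shared probe sets assessed in both comparisons, with the fructose comparison on the horizontal and the Chrebp-null comparison on the vertical axis; dotted lines mark 2-fold, and the 54 sets past 2-fold in either are dark. Gst, Saa and Idi1 sets lie at the upper left, Rnu1b and Rmrp sets at the bottom, and Preb/Abhd1 alone at the far right.

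The highest differences were in detoxification enzymes. Alpha-class glutathione transferases join glutathione to reactive compounds and are classical targets of NRF2. Gsta1/Gm3776/Gsta2 read 5.73 on chow, 4.85 after 3 weeks of fructose, 6.02 after 2 weeks and 9.06 in the null, 3.04 above its WT counterpart on the log2 scale, or 8.23-fold. Gm3776/Gm10639/Gsta1/Gsta2 read 8.73, 7.56, 8.31 and 11.03, a difference of 2.72. The null pool was highest and the 3-week pool lowest in both sets. Gm10639, the listed gene with a set of its own, read 6.08, 4.53, 5.16 and 7.00, also highest in the null pool and lowest at 3 weeks. These sets list overlapping genes and so are not separate evidence. The remaining alpha-class set, Gsta2/Gsta1/Gm10639, stayed below the floor. The pi class did not share the pattern: Gstp1/Gstp2 read 10.98, 10.61, 10.99 and 11.11.

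Saa1/Saa2 read 7.38 in the 2-week WT pool and 10.02 in the Chrebp-null pool, a difference of 2.63. Saa2 has a set of its own, which read 6.56, 6.66, 6.76 and 9.51. In the null pool the own set was thus higher by 2.75, close to the shared set, but in the fructose comparison it differed by 0.10 where the shared set differed by −1.88. Among Kupffer cell markers, Marco was high in the same pool, at 5.84, 4.95, 5.55 and 8.21. The other 5 of 6 Kupffer markers differed by −0.45 to 0.12 between the null and its WT pool. With Marco included, the summed linear level of the list was 1215 in the 2-week WT pool and 1351 in the null pool. The median difference over the list was −0.18. The part of the Kupffer markers in the result was not tested.

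Lipid and bile acid genes were among the sets higher in the null pool. Scd2/Mir5114 read 6.45, 6.89, 7.15 and 9.53, a difference of 2.37. Scd2 is a desaturase that makes monounsaturated fatty acids, and Mir5114 lies within it. Slc51b/Rasl12 read 5.66, 5.74, 5.35 and 7.41, a difference of 2.06. Slc51b encodes a subunit of the transporter that exports bile acids from cells, and the own set of Rasl12, which overlaps it, stayed below the floor with 2.47, 2.44, 2.36 and 2.76. Idi1/Gm13502 read 8.81 on chow, 7.66 and 7.43 on fructose and 9.34 in the null pool. Idi1 makes an isoprenoid building block of cholesterol, and its set was lower in both fructose pools than on chow and highest in the null pool.

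**Figure D3:**
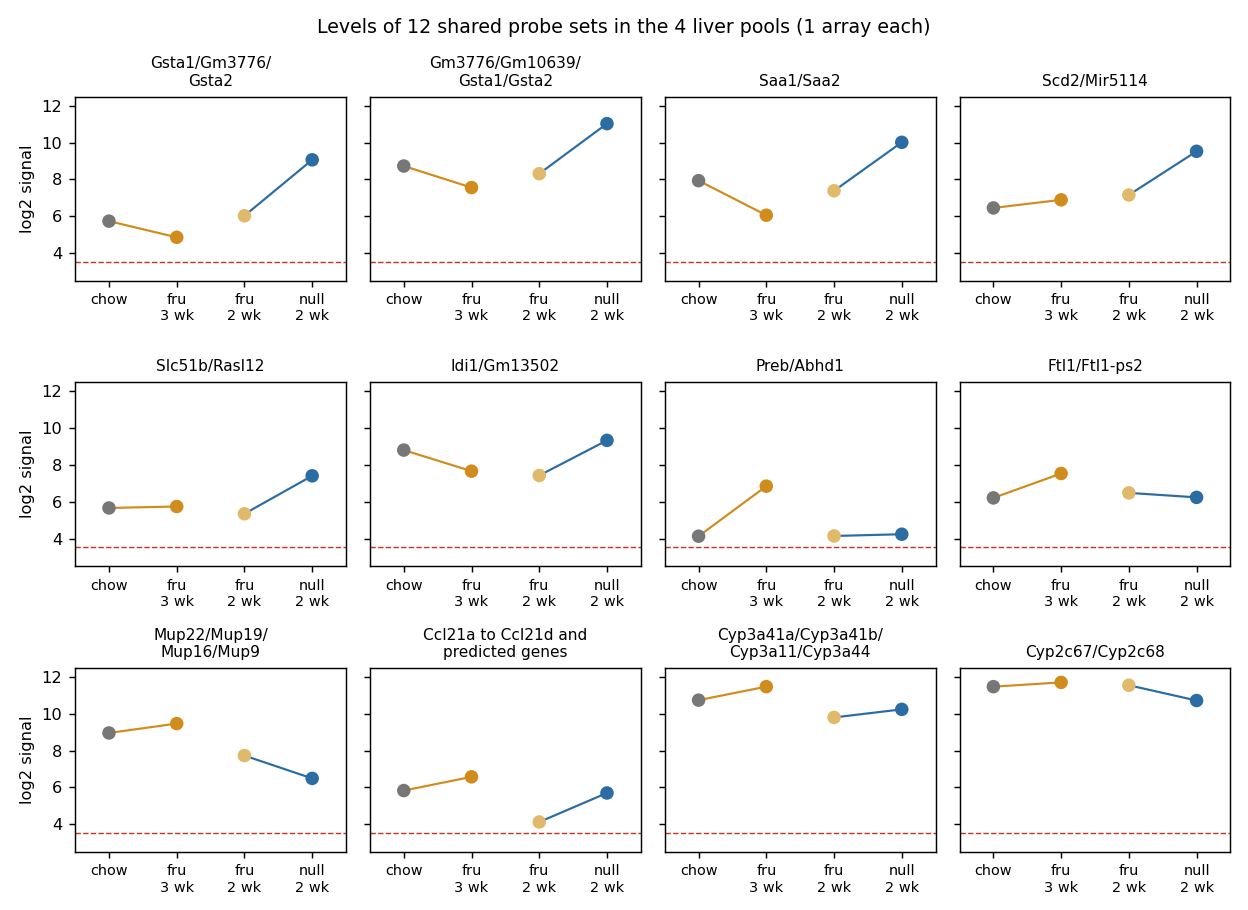
Log2 signal (vertical axis) of 12 shared probe sets in the 4 pools, 1 array each; lines join the arrays of a comparison and the dashed line is the floor. The null pool is highest in the Gst, Saa, Scd2, Slc51b and Idi1 sets, the 3-week pool stands alone for Preb/Abhd1, and the 2-week WT pool is lowest for the Ccl21 set.

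Further sets higher in the null pool were of several kinds. Btg3/Gm7334, with Btg3 an antiproliferative gene, read 4.19, 4.23, 4.17 and 5.75. Its mirror set Gm7334/Btg3 read 4.30, 4.19, 5.27 and 5.97 and was 0.70 higher. Rbm3-ps/Rbm3, of a cold-inducible RNA-binding protein, read 7.78, 7.09, 7.63 and 8.74. H19/Mir675, of an imprinted fetal transcript and the microRNA inside it, read 2.39, 2.43, 2.81 and 4.30, so that the null pool alone was above the floor. The same held for Ccdc85b/Fosl1 (2.99, 2.52, 2.22 and 3.78), Pkmyt1/Paqr4 (2.53, 2.68, 2.57 and 3.85) and 5730408K05Rik/Mir5136 (3.15, 2.99, 2.62 and 3.76), whose differences are therefore less firm. Of the 27 higher sets, 8 had the lower array below the floor.

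Among enzymes and secreted proteins with sex-biased members, the order of the pools differed from set to set. The major urinary proteins bind pheromones and are made by the liver in large amounts, mostly in males. Mup22/Mup19/Mup16/Mup9 read 8.96 on chow, 9.47 after 3 weeks, 7.73 after 2 weeks and 6.49 in the null pool, a difference of −1.24 from the 2-week WT pool. Mup10/Mup11/Mup22/Mup18, which shares Mup22 with it and so is not separate evidence, had the same order with 8.26, 8.41, 7.55 and 6.63. The list of male-biased genes was also lower there, with a summed linear level of 11009 in the 2-week WT pool and 5631 in the null pool. Of its 12 assessed genes 9 were at least 2-fold lower, against 1.45% of all 1-symbol sets. Cyp2c67/Cyp2c68, of drug- and lipid-oxidising enzymes, read 11.47, 11.70, 11.55 and 10.72, while the own set of Cyp2c68 differed by 0.03 between null and WT. Hsd3b4/Gm10681/Hsd3b5, on 2 sets with identical values, read 4.30, 4.31, 3.84 and 3.39, the last below the floor. The own set of Hsd3b5, a male-biased gene, differed far more. It read 7.99, 8.27, 7.47 and 2.20, a difference of −5.27 between null and WT, with the null value below the floor.

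Cyp3a41a/Cyp3a41b/Cyp3a11/Cyp3a44 lists steroid- and drug-oxidising enzymes, some of them female-biased, and read 10.74, 11.47, 9.80 and 10.24. It was 0.73 above chow at 3 weeks and differed from it by −0.94 at 2 weeks. Of the listed genes, Cyp3a44 had own values of 7.24, 9.71, 4.23 and 4.92, with the same order, and Cyp3a11 had 11.35, 10.53, 11.04 and 11.57, with another. A further set above the floor, Cyp3a41b/Cyp3a41a/Cyp3a11/Cyp3a44, lists the same genes, and its values are not given here. The summed linear level of the female-biased list was 8756, 11198, 5600 and 2951. The sex-linked values above differ most in the null pool. The share of males and females in a pool and its genotype or diet cannot be told apart here, and its part in these results was not tested.

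The Ccl21 chemokines, which guide lymphocytes and dendritic cells to lymph vessels and nodes, are present in several copies, and 9 sets in 5 profiles list them. The profile held by 4 sets read 5.82 on chow, 6.57 after 3 weeks, 4.12 after 2 weeks and 5.69 in the null pool. The other 4 profiles lay between 5.62 and 5.88 on chow, 6.40 and 6.70 at 3 weeks, 4.31 and 4.37 at 2 weeks, and 5.51 and 5.90 in the null pool. All 9 sets were counted as higher in the Chrebp-null comparison, with differences of 1.14 to 1.59, yet against the 3-week pool they differed by −0.75 to −0.89. It was the 2-week WT array that stood apart, and it is the reference of that comparison. The 9 other chemokine sets, of Ccl27 and Ccl19 with predicted copies, differed by −0.63 to 0.17 between null and 2-week WT. All 5 endothelial markers were above the floor in every pool, and their summed linear level was 953, 1230, 1267 and 1008. Their part in the result was not tested. Lyve1, a marker of lymphatic and sinusoidal endothelium, read 7.07, 7.88, 8.20 and 7.19.

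Sets that list a small RNA gene made up most of those lower in the null pool. Of 101 such sets assessed, 4 were higher and 16, in 8 profiles, were lower, while of 727 sets without one, 23 were higher and 5 lower. The 9 identical sets of Rnu1b1/Rnu1b2/Rnu1b6 read 6.38, 6.77, 6.18 and 4.18, a difference of −2.00 between the null and its WT pool. Rmrp/Ccdc107 read 9.90, 10.57, 9.96 and 8.13. Rmrp is the RNA of an enzyme that processes ribosomal RNA, and the set named in the other order, Ccdc107/Rmrp, read 6.31, 6.03, 6.09 and 6.12. In the Rnu1b1 and Rmrp/Ccdc107 sets the 3 WT pools lay within 0.68 of each other and the null pool below them all, which Ccdc107/Rmrp did not share.

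Small nucleolar RNAs of the H/ACA kind guide pseudouridine formation, and those of the C/D kind guide methylation. Snora70/Gm5621/Rpl10 read 5.88, 5.15, 5.26 and 3.46. The 2 sets of Snora17/Snhg7 read 6.12, 6.50, 6.61 and 5.06, and 6.19, 6.59, 6.24 and 5.03. Snora52/Rplp2 read 6.91, 7.33, 6.74 and 5.77, and Snord15b/Rps3 read 6.59, 6.81, 6.50 and 5.39, while the own set of Rps3, a ribosomal protein, differed by −0.09. Every one of these was lowest in the null pool. Others were not: Snord32a/Rpl13a read 11.35, 11.10, 11.38 and 11.48, Snord34/Rpl13a 6.91, 7.38, 7.41 and 7.62, and the 4 identical sets of Rnu3b1/Rnu3b2/Rnu3b4/Rnu3b3, of the U3 RNA, 7.44, 7.80, 7.72 and 7.45. Snord14a/Rps13 was higher in the null pool, at 2.61 to 4.03, with the lower value below the floor. Over the 10 shared H/ACA sets the median Chrebp-null difference was −0.74 with 9 of 10 below 0, and over the 13 C/D sets −0.09. Over all probe sets, 7600 of 18481 were below 0. Of H/ACA RNAs with a set of their own, 12 of 22 were at least 2-fold lower, with a median of −1.34. Of C/D RNAs 11 of 37 were, with a median of −0.55, against 1.45% of all 1-symbol sets. RNA quality of the pools is not given in the labels.

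**Figure D4:**
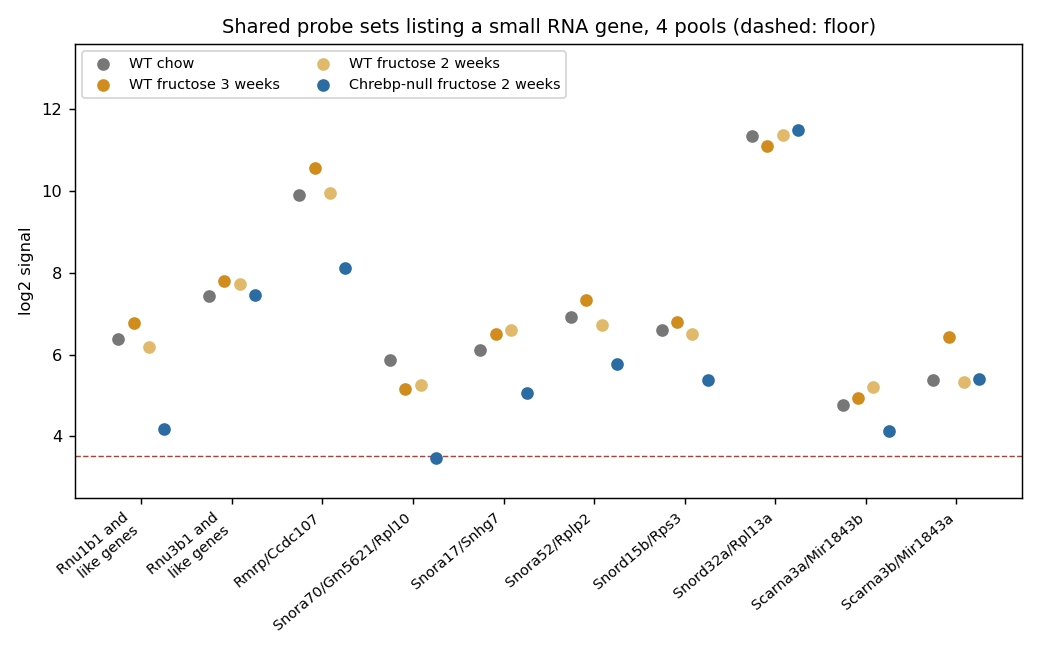
Log2 signal (vertical axis) of 10 shared probe sets that list a small RNA gene, with 1 point per pool coloured as in the key and the floor dashed. The Chrebp-null point is lowest in the Rnu1b1, Rmrp, Snora and Snord15b sets and in Scarna3a/Mir1843b, and lies among the WT points in the Rnu3b1 and Scarna3b/Mir1843a sets.

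MicroRNA sets were mixed. Over 60 assessed shared sets with a microRNA hairpin as their first small RNA the median Chrebp-null difference was 0.03, with 3 higher and 1 lower. The lower one was Mir134/Mirg, of an imprinted microRNA cluster, at 3.35, 3.69, 4.25 and 3.17, with the null value below the floor. Scarna3a/Mir1843b (4.77, 4.93, 5.21 and 4.14) and Scarna3b/Mir1843a (5.38, 6.42, 5.34 and 5.41) pair a Cajal body RNA with each of 2 related microRNAs, and differed by −1.06 and 0.07 between null and WT. Mir25/Mcm7, a microRNA inside a replication gene, differed by 0.78. Vmp1/Mir21a, with Mir21a an abundant microRNA, read 5.29, 5.42, 5.97 and 6.18.

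The remaining sets lower in the null pool were of single genes with a neighbour or predicted partner, apart from Lce1c/Lce1k, whose genes are of the same family. Slc30a10/Gm2061 read 4.94, 5.30, 5.54 and 3.76, a difference of −1.78, and Slc30a10 is a manganese exporter of liver cells. Alas2/Apex2, of red-cell haem synthesis and a DNA repair enzyme that overlaps it, read 6.66, 6.63, 7.07 and 5.98, while the own set of Apex2 read 4.18 to 4.57. Of 2 alpha-globin sets Hba-a2/Hba-a1, 1 read 10.38, 10.55, 10.65 and 10.40 and the other 4.59, 4.61, 4.50 and 4.44. The 2 beta-globin sets above the floor differed by −0.40 and 0.20 between null and WT. Lce1c/Lce1k (3.72 to 2.48) and Hipk1/Gm15886 (3.95 to 2.85) ended below the floor, and the own set of Hipk1, a kinase gene, read 8.79 and 8.70.

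Most families differed little between pools. The 16 zinc finger sets above the floor, of which 10 list members of the Zfp965 to Zfp971 group and so overlap, had a median of 0.57 in the fructose comparison with 15 of 16 above 0, and of 0.00 in the Chrebp-null comparison with 8 of 16 above 0. At 2 weeks over chow their median was 0.26. Ribosomal protein sets had a median of 0.38 at 3 weeks over chow, with 14 of 15 above 0, and of −0.03 at 2 weeks. Over all probe sets, 8988 of 18374 were above 0 at 3 weeks over chow. In neither family did a median reach 2-fold, and 1 zinc finger set was past it. Histone sets had medians of 0.02 and 0.13 in the fructose and Chrebp-null comparisons. H2bc4/H2bc8/H2bc6, of linked H2B genes, read 10.38, 10.80, 10.08 and 10.27, and H2ac18/H2ac19/H2ac20, on 2 identical sets, 10.21, 9.67, 9.41 and 9.55. H2al1i and 6 like testis histone genes gave 1 set past 2-fold, at 2.83 in the 2-week WT pool and 4.08 in the null pool, but 4.46 and 4.16 in the other WT pools.

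Among immune families other than the chemokines, no set was past 2-fold in either comparison. Of 4 assessed sets of class I major histocompatibility genes, which present peptides to T cells, 3 were lower at 3 weeks than on chow with a median of −0.28, and all 5 were higher at 2 weeks with a median of 0.23. H2-Q7/H2-Q9/H2-Q8 read 10.15, 9.72, 10.22 and 10.11. Immunoglobulin sets had medians of −0.17 and 0.30 in the fructose and Chrebp-null comparisons. Ighv1-54/Igkv1-135/Ighm read 7.31, 6.41, 7.26 and 7.68, and Ighm alone, the heavy chain of IgM, read 8.27, 7.94, 8.38 and 8.80. Among B and plasma cell markers Jchain read 4.80 to 5.14, Cd79a read 3.91, 3.69, 4.52 and 3.77, a difference of −0.75 between null and WT, and Ms4a1, Mzb1 and Cd79b were below the floor in every pool. The Lilr4b/Lilrb4a set, of inhibitory leukocyte receptors, read 2.35, 2.90, 3.38 and 4.36, above the floor in the null pool alone and 0.98 above its WT pool. Trim34b/Trim34a read 2.39, 3.12, 3.98 and 3.58, and Ighg3/Ighv1-47/Ighm 7.45, 6.89, 7.81 and 8.16. Of 8 amylase sets, the 4 above the floor (4.20 to 5.19) and those of Entpd4/Entpd4b (differences of 0.24 to 0.39 at 3 weeks) varied less.

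A shared set and the own set of a listed gene did not always differ alike. With the own set nearest in level, 379 profiles could be paired in the fructose comparison. Pearson's r between their differences was 0.05, across sets that share arrays and are not independent. The median absolute gap between the paired differences was 0.30. Most differences were small, with quartiles of −0.18 and 0.28 over the assessed shared sets, which limits what r can show. Of 9 shared sets past 2-fold there, 3 had an own set of the same sign and 1 had it past 2-fold. In the Chrebp-null comparison r was 0.34 over 363 profiles, with a median absolute gap of 0.23 and quartiles of −0.14 and 0.29. Of 9 past 2-fold, 7 had the same sign and 2 were past it, Saa1/Saa2 and Gm3776/Gm10639/Gsta1/Gsta2. By position, r in that comparison was 0.68 over 71 sets whose genes lie within 10 kb without overlap, and 0.11 over 141 sets of overlapping genes. Only 1 of the 71, Saa1/Saa2, was past 2-fold, and r without it was not computed. In the fructose comparison the same classes gave 0.08 over 78 sets and −0.15 over 143, so closer agreement within 10 kb was not seen there. Own sets existed for 925 of the 2722 listed symbols, and for the other 1797 the shared set is their only measurement on the array.

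**Figure D5:**
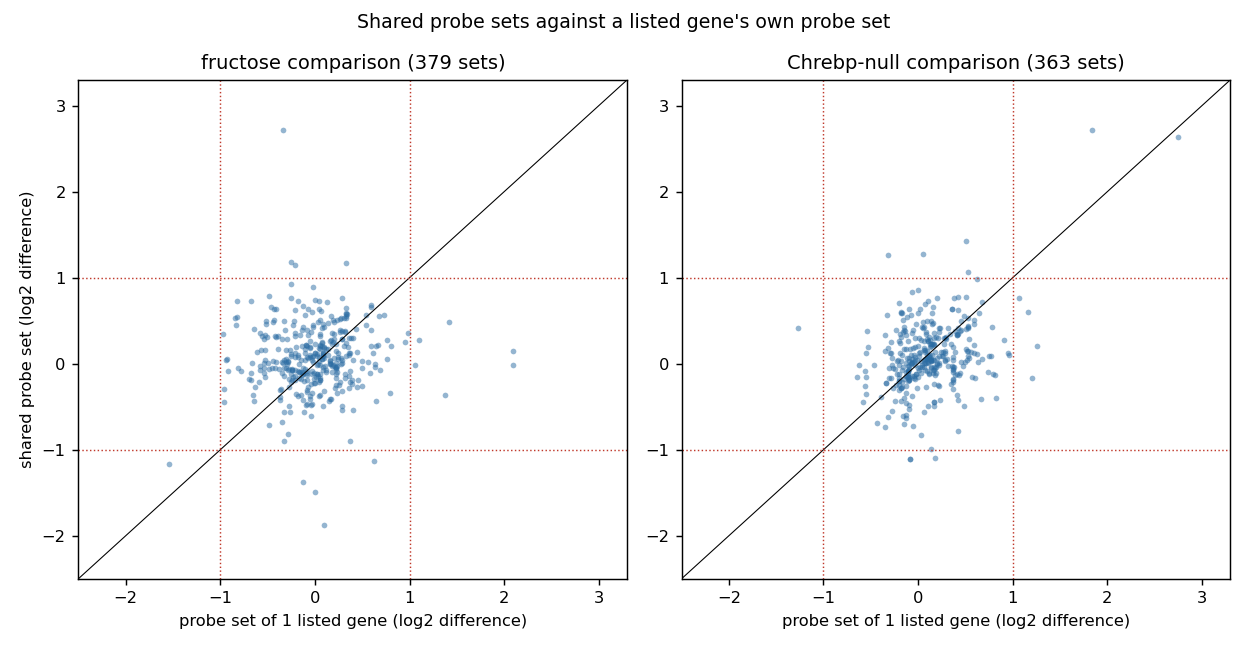
Log2 difference of a shared probe set (vertical axis) against that of the own probe set of a listed gene (horizontal axis), for 379 profiles in the fructose comparison and 363 in the Chrebp-null comparison; the diagonal marks equal differences and dotted lines 2-fold. At the upper right of the Chrebp-null panel, Saa1/Saa2 lies near the diagonal and the Gst set above it. Preb/Abhd1 lies far above the diagonal in the fructose panel.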

How the data were processed

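Liver RNA was combined within each group and read on a single array, per the labels' protocols. The deposited log2 values were made by the authors with affy and RMA, per the submitters' processing notes. Their versions and settings were not given in the sources used here, and probe sequences were not used here. The values ran from 1.05 to 12.76 and were used as deposited. RMA compresses differences of dim sets.

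Members, classes and lists were chosen with earlier results of these data known. Gene symbols came from the platform annotation; 2636 of 2724 listed gene IDs were found in a RefSeq table (GRCm38.p6), which changed 0 symbols and gave positions. A set joined a family when at least 2 of its symbols had its prefix. The histone prefix was extended to current histone symbols after the data were seen. The 4 sets whose annotation repeats 1 symbol were counted with 1-symbol sets.

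A set was assessed where the higher compared array was at or above the floor, the median over 22184 genes of their mean level, and counted at 2-fold. The named sets were the 12 that differed most, per direction and comparison, among sets with a described symbol, and up to 3 by difference and 2 by level in each family with at least 3 sets above the floor. Others named here (small RNA sets, Ccdc107/Rmrp, Ccdc85b/Fosl1, Pkmyt1/Paqr4, Gm7334/Btg3, Gsta2/Gsta1/Gm10639, Serf2/Fam221b, Lilr4b/Lilrb4a, Trim34b/Trim34a and the Mup10, Cyp and Hsd3b sets) were chosen after their values were seen. Own values are those of the brightest set of a gene. Promoter identity, used in place of the protein identity first planned, came from global alignment (match 1, mismatch −1, gap opening −2, extension −0.5). Counting and family assignment were tested on simulated data. Alternatives were other floors, thresholds of 1.5-fold and 3-fold, median centring, quantile normalization, removal of the trend with level (lowess, fraction 0.3), the other WT fructose array, and families by all symbols. Python 3.11.15, numpy 2.4.6, pandas 2.3.3, statsmodels 0.14.6 and matplotlib 3.10.9 were used.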

Additional observations from a re-analysis of the deposited data

Results flagged for a closer look

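For 7 value profiles the WT fructose pools moved in opposite directions from the same chow array, each by at least 1.5-fold. These differences between pools were not tested, since each pool has 1 array, and duration and pool cannot be told apart. Serf2/Fam221b was 0.62 above chow at 3 weeks and differed by −1.00 at 2 weeks. The 5 Ccl21 profiles differed by 0.75 and −1.71, 0.83 and −1.54, 0.69 and −1.48, 0.78 and −1.25, and 0.82 and −1.55 at 3 and 2 weeks. Cyp3a41a/Cyp3a41b/Cyp3a11/Cyp3a44 differed by 0.73 and −0.94. The other set of the same genes, Cyp3a41b/Cyp3a41a/Cyp3a11/Cyp3a44, was not among the 7 profiles.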

How the results depend on the processing

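No paired analysis was possible because each group has 1 array. The counts changed most with the threshold. At 1.5-fold, 54 sets were higher and 39 lower in the fructose comparison and 70 and 43 in the Chrebp-null comparison; at 3-fold these were 1, 2, 8 and 12. With the 2-week array over chow 4 sets were higher and 16 lower. With the null over the 3-week array 33 were lower and 23 higher. A floor at the 75 percentile (5.93) left 8 higher in the Chrebp-null comparison. Counting identical profiles once, an alternative chosen after the data were seen, left 13 lower there. The other 31 counts, under these and the scaling alternatives, stayed within 1.5 times. With the other WT fructose array the sign turned in 33 of 84 named differences of the fructose comparison and 28 of 85 of the Chrebp-null comparison, among them 3 of 15 and 4 of 23 past 2-fold. Of these last, at 2 weeks over chow Rmi1/Hnrnpk gave −0.068, Cerkl/Itga4 −0.35 and Ftl1/Ftl2-ps/Ftl1-ps2 −0.15; over the 3-week array the Ccl21 profiles gave −0.88, −0.77 and −0.81 and the H2al1 set −0.086. The cause was not tested. Centring, quantile normalization and trend removal turned 4, 8 and 7 of 169 named differences, none of the 38 past 2-fold and none larger than 0.095. Of the family medians 27 moved by more than 0.303 and 297 did not. Sets below the floor, and single arrays, limit every value.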
